A study of Mus musculus with 16 samples.

Results

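Interferon-stimulated genes are genes that cells switch on when an interferon binds its receptor, and 39 of them were followed here in mouse splenic B cells. The members were taken by name: an array spot counted when it was no control spot and its gene name was one of the 39. All 39 were on the array, out of 34741 genes, and all 39 passed the filter on dim probes in each test. In some comparisons of single arrays 38 were measured, where 1 member was not well above background on either array or had no value. Values are log2 ratios of a sample to 1 common pool, so a value of 0 means the pool's level and a change of 1 is 2-fold.

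All cells came from the spleens of AM14 mice, which carry a transgenic B cell receptor that binds IgG2a. The genotypes were Tlr7/9-/- (double knockout), Tlr9-/- (Tlr9 knockout), Tlr7-/- (Tlr7 knockout) and WT, and all 4 carried the AM14 receptor. B cells were left unstimulated (0 h) or were cultured for 6, 24 or 42 h with PL2-3, a monoclonal IgG2a antibody against chromatin. Each genotype and time was 1 array, 16 in all, so there are no replicates, and in each test other genotypes or other times stand in for them. On every array the sample was labelled with Cy5 and hybridised against Cy3-labelled RNA pooled from unstimulated B cells of the 4 genotypes. Tlr9 and Tlr7 are endosomal sensors of DNA and of RNA. The comparisons ask how the response to an immune complex that carries nucleic acid depends on each receptor. The sources used here state neither sex and age of the mice, nor PL2-3 dose, B cell purification or pooling of animals. No cells were cultured without PL2-3, so time in culture and PL2-3 cannot be told apart.

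Type I interferons bind the IFNAR1 and IFNAR2 receptor and activate the kinases JAK1 and TYK2. These phosphorylate STAT proteins, and a complex that holds STAT2 and IRF9 binds a DNA element called the interferon-stimulated response element (ISRE). Interferon-gamma acts through another element, the gamma-activated site (GAS). In B cells the nucleic acid sensing Toll-like receptors signal through MyD88, and the genes described here include RNA-binding and RNA-cutting antiviral proteins, GTPases that act on viruses or on membranes around pathogens, and the transcription factors of the pathway itself.

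The B cell markers listed for the check, among them Cd79a, Cd79b, Ms4a1 and Pax5, were well above background in 8 of 8 cases on every array. On the WT array at 0 h so were macrophage and monocyte (10 of 10), neutrophil (5 of 5), T cell (7 of 7) and NK cell (5 of 5) markers. The check thus does not tell cell types apart. Between 37.4% (Tlr9 knockout at 0 h, the lowest) and 62.7% (Tlr7 knockout at 42 h) of spots were well above background in Cy5, and no spot was saturated. The brightest of 3 Tlr7 probes read -0.13 ± 0.42 on the arrays without the gene and 1.12 ± 0.47 on those with it (SD, n = 8 each), a difference of -1.25 (2-sided exact permutation test, p = 0.000466). A second bright probe differed by -1.56 (p = 0.000777), and the third, well above background on 4 arrays, differed by 0.14 the other way (p = 0.0214, exact permutation tests, n = 8 each). The Tlr9 probe did not register the knockout, with a difference of -0.0005 (p = 0.998, exact permutation test, n = 8 each). WT and Tlr7 knockout arrays lay on slide 1, and double knockout and Tlr9 knockout arrays on slide 2. Loss of Tlr9 and slide cannot be told apart. Pairs within a slide are Tlr7 knockout against WT and double knockout against Tlr9 knockout.

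The promoters of 5 members are printed because they cover the patterns described below: Isg15, which was above its 0 h level at 24 h, Oas1a and Ifit1, which were lower at 6 h and higher again at 24 h, Irf1, which stayed low, and Samd9l, which had the largest fall. They are RefSeq sequences on GRCm38.p6, from 250 bases before to 50 bases after the annotated start, written 5′ to 3′ on the gene's strand. Capitals mark matches to the ISRE core TTTCNNTTTC or to the GAS motif TTCNNNGAA, on either strand.
Isg15 (chr4:156200769-156201068, minus strand): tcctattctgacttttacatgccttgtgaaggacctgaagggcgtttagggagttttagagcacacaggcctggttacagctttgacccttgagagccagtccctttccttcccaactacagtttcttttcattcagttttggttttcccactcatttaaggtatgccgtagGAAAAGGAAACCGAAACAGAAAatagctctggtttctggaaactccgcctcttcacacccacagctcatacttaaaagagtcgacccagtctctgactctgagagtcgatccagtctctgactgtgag
Oas1a (chr5:120907476-120907775, minus strand): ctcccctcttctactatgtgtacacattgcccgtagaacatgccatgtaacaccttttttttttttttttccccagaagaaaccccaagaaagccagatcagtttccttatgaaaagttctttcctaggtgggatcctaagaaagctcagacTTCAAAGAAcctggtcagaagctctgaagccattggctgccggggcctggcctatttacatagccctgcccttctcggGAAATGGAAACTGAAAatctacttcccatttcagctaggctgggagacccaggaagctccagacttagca
Ifit1 (chr19:34640639-34640938, plus strand): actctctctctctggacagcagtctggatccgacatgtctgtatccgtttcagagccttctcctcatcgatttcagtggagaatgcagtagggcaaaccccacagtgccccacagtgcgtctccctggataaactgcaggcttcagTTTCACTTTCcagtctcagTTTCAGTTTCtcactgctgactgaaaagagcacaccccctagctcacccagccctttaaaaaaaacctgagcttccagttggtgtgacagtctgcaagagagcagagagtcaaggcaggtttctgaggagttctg
Irf1 (chr11:53769764-53770063, plus strand): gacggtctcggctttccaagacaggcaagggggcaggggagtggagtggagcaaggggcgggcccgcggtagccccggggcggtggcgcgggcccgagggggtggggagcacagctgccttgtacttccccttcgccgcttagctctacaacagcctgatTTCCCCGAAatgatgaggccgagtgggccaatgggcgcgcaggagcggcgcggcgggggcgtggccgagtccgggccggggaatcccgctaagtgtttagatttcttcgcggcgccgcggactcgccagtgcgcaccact
Samd9l (chr6:3399522-3399821, minus strand): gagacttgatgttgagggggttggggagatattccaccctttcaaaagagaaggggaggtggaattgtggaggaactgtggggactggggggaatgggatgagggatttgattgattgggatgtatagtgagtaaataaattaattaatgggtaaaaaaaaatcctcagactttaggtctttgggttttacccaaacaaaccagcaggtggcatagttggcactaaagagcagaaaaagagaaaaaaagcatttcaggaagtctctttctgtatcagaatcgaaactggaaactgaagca
Isg15 held 3 overlapping ISRE cores, which begin 78, 72 and 66 bases before the start. Oas1a held 2 ISRE cores, 20 and 14 bases before the start, and a separate GAS match at 98. Ifit1 held 2 ISRE cores at 104 and 85 bases, and Irf1 held 1 GAS match at 90 bases. Another listed Irf1 promoter (chr11:53770223-53770522) held neither motif, and the one with the match was printed. The Samd9l window held none of these letters, which says nothing of any factor.

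Promoters were listed for 32 of the 39 members, and none was listed under the names Mx1, Mx2, Oas2, Usp18, Rtp4, Parp9 and Parp14. Of the 38 member promoters, 14 (36.8%) held an ISRE core, against 1131 of all 32851 promoters (3.44%). A GAS match stood in 8 of the 38 (21.1%), against 2726 of all promoters (8.3%). An ISRE core overlapped a GAS match in 1 member promoter, that of Bst2, and in 24 of all promoters. Of the members that were lower at 6 h, 11 of the 23 with a listed promoter held an ISRE core, and of the other members 3 of 9 did. A match is a description of these letters, not a binding site.

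At 6 h with PL2-3 most interferon-stimulated genes were lower than before stimulation in all 3 genotypes that keep at least 1 of the receptors. The test across Tlr9 knockout, Tlr7 knockout and WT arrays, with genotype as a term, called 29 of 39 members lower and none higher (limma, Benjamini-Hochberg adjusted p under 0.05). Over all 22472 genes tested, 23.8% were called lower and 22.9% higher. The median member was at -1.16, against a median of -0.002 for all genes. Without the Tlr9 knockout arrays, 34 members were called lower and 3 higher (57.2% of all genes called).

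Samd9l, an interferon-induced antiviral factor, fell most. It read -4.41 in Tlr9 knockout, -5.41 in Tlr7 knockout and -5.68 in WT cells at 6 h, against -0.37, -0.03 and -0.05 at 0 h. All 3 stimulated arrays lay more than 4 log2 units below their own 0 h arrays, and the fitted change was -5.02 ± 0.43 (SE, adjusted p = 1.16e-05, limma). A second probe of the gene showed the same, at -4.24, -4.96 and -5.16 at 6 h. Irf1, the transcription factor that both kinds of interferon induce, read -2.03 in Tlr9 knockout, -2.34 in Tlr7 knockout and -2.50 in WT cells at 6 h, against -0.06, 0.03 and -0.01 at 0 h. The groups did not overlap, and the change was -2.28 ± 0.27 (SE, adjusted p = 8.76e-05, limma).

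By role, the fall at 6 h took in the transcription factors (4 of 4 lower), the PARP, DTX3L and TRIM genes (5 of 5), the RNA binders Ifit1, Ifit2 and Ifit3 (3 of 3) and the GTPases (7 of 8). Stat2, whose protein joins IRF9 in that complex, changed by -1.69 ± 0.23 (SE), and Irf9 by -0.98 ± 0.13. Irf7, which drives interferon-alpha genes, changed by -1.49 ± 0.24. Among the GTPases, Gbp2 changed by -2.14 ± 0.35 and Ifi47, an immunity-related GTPase, by -1.85 ± 0.19. Parp9 and Dtx3l, whose proteins form a complex that attaches ubiquitin, changed by -1.72 ± 0.20 and -1.64 ± 0.20 (SE, adjusted p between 8.08e-05 and 0.000712 for these 4 genes, limma). Trim25, a ubiquitin ligase of RNA sensing, changed by -1.61 ± 0.26 by its brighter probe. Its second probe read 0.54 in Tlr9 knockout, -0.0004 in Tlr7 knockout and 0.18 in WT cells at 6 h, against 0.43, 0.58 and 0.50 at 0 h. By that probe the fall was smaller in Tlr7 knockout and WT cells and absent in Tlr9 knockout cells.

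Of the oligoadenylate synthetases, which make the signal that activates RNase L, Oas1a changed by -2.19 ± 0.28 (SE) and Oas2 by -1.65 ± 0.27, while Oas3 (-0.43 ± 0.20), Oasl1 (0.68 ± 0.30) and Oasl2 (-0.14 ± 0.15) were not called. The exonuclease gene Isg20 was lower by its fitted change of -1.37 ± 0.21. Rtp4, an interferon-induced membrane protein gene, changed by -1.73 ± 0.29 and Xaf1, whose protein binds the apoptosis inhibitor XIAP, by -1.51 ± 0.23 (adjusted p of 0.000872 and 0.000482, limma). Isg15, a small protein that is attached to others like ubiquitin, was not called at 6 h (0.52 ± 0.40, adjusted p = 0.33). It read -0.74 in Tlr9 knockout cells but 1.03 in Tlr7 knockout and 0.95 in WT cells. Mx1, Tap1, Lgals3bp, Ifi44, Bst2 and Ifi35 were the other members not called at 6 h. Of the 8 genes that interferon-gamma induces strongly (Irf1, Igtp, Irgm1, Irgm2, Ifi47, Gbp2, Gbp3 and Tap1), 7 were lower and Tap1 was not called (-0.92 ± 0.34, adjusted p = 0.0525).

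Centring each array on its median instead of loess moved the median of all genes at 6 h to 0.22, and the members then had 26 lower and 4 higher, with a median of -0.78. Gbp3, Ifit1 and Irf9 were the falls no longer called under that scaling. Markers of some other cell types were lower too. The median of 10 macrophage and monocyte markers at 6 h lay between -1.99 and -1.73 over the 4 genotypes, and that of 8 plasmacytoid dendritic cell markers, Bst2 among them, between -1.37 and -0.77. Medians of neutrophil, NK cell and red cell markers also lay under the pool. Those of 7 T cell markers lay between -0.32 and -0.14, and those of 3 conventional dendritic cell markers between -0.01 and 0.52. The median of the 8 B cell markers lay between -2.35 and -2.06 at 6 h, the double knockout included. In bulk RNA, fewer cells of a type and less RNA per cell cannot be told apart, and the part of these markers in the results was not tested.

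**Figure D1:**
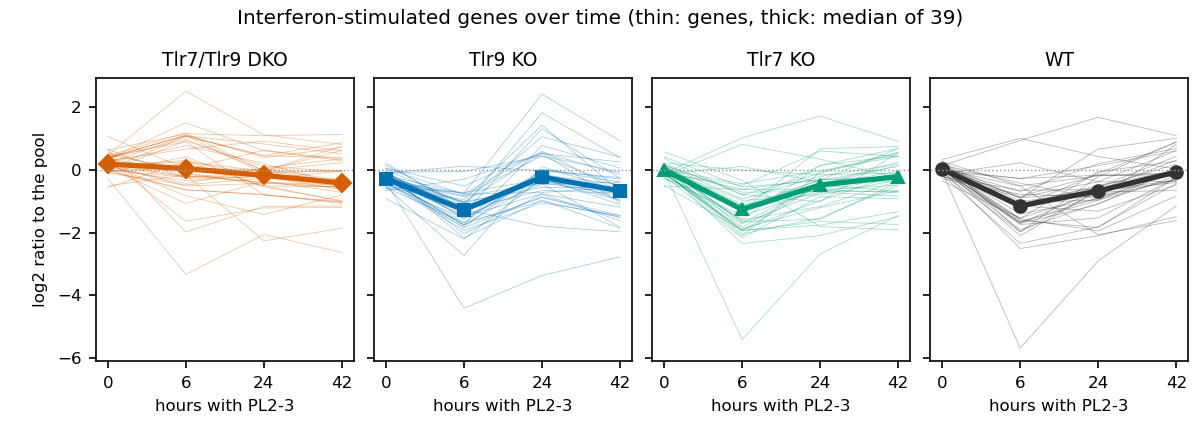
Log2 ratio to the pool (vertical axis) by hours with PL2-3 (horizontal axis), with thin lines for the 39 genes and a thick line for their median, 1 array per genotype and time. The median was 0.05 at 6 h in the double knockout, against -1.27, -1.25 and -1.14 in Tlr9 knockout, Tlr7 knockout and WT cells.

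By 24 h the genes had risen again in the genotypes with a receptor. Against 6 h, 21 of 39 members were called higher and 2 lower (limma), where 14.1% of all genes were called higher and 17.9% lower. The median member rose by 0.68, against -0.01 for all genes. Without the WT arrays 11 members were called, all higher (11.8% of all genes called). Without the Tlr7 knockout arrays 7 were called higher and 1 lower (12.4% of all genes called). Leaving out the Tlr9 knockout arrays gave 25 higher and 4 lower (41% of all genes called).

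Oas1a read 0.11 in Tlr9 knockout, -0.07 in Tlr7 knockout and -0.20 in WT cells at 24 h, against -2.73, -2.10 and -1.97 at 6 h. That is a return to near the pool in each genotype, by 2.21 ± 0.28 (SE, adjusted p = 0.000554, limma). Samd9l read -3.36 in Tlr9 knockout, -2.68 in Tlr7 knockout and -2.89 in WT cells at 24 h, still far under the pool, and was 2.19 ± 0.43 above its 6 h level (adjusted p = 0.00467, limma). Usp18, the protease that removes ISG15 and dampens the interferon receptor, was 2.17 ± 0.29 above its 6 h level, Xaf1 1.91 ± 0.23, Parp9 1.53 ± 0.20 and Isg15 1.53 ± 0.40. Ifi47 was 1.49 ± 0.19 higher than at 6 h, Mx2, a dynamin-like antiviral GTPase, 1.47 ± 0.26, Ifi44 1.45 ± 0.38 and Rtp4 1.37 ± 0.29 (SE). Isg15 was not called without the WT arrays or without the Tlr7 knockout arrays, and was 0.72 higher without the Tlr9 knockout arrays. None of the 4 transcription factors was called between 6 and 24 h, with changes between 0.22 (Irf7) and 0.65 (Irf1).

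The members that went down between 6 and 24 h were Rsad2 and Ifi35. Rsad2, which encodes the radical SAM enzyme viperin, read -1.79 in Tlr9 knockout, -1.80 in Tlr7 knockout and -2.06 in WT cells at 24 h, against -1.25, -0.32 and -0.51 at 6 h. It was well above background in Cy5 on 12 of 16 arrays, the WT array at 24 h not among them. It fell by 1.19 ± 0.21 (SE, adjusted p = 0.00265, limma). Ifi35 read -0.01 in Tlr9 knockout, -0.38 in Tlr7 knockout and -0.38 in WT cells at 24 h, against 0.12, 0.12 and 0.23 at 6 h. The fall of Ifi35 was small, 0.41 ± 0.10 with an adjusted p of 0.0128 (limma), and it was not called with each array centred on its median (adjusted p = 0.104).

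Relative to 0 h, the members at 24 h were fewer in the lower class: 14 were called lower and 2 higher, where 25.9% of all genes were called lower and 22.7% higher. The median member was at -0.38, against 0.007 for all genes. With each array centred on its median, 9 were lower and 11 higher, with a member median of 0.24 beside a median of 0.22 for all genes. At 24 h the direction of the list as a whole thus depended on the scaling. The count of 16 members called in either direction (48.6% of all genes) was 27 without the Tlr9 knockout arrays (57.9% of all genes). It was 10 without the WT arrays (35.3% of all genes) and 8 without the Tlr7 knockout arrays (37.4%).

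Isg15 and Usp18 were the members called higher at 24 h, out of 12 with a fitted change above 0, and both were also called with each array centred on its median. Isg15 read 2.42 in Tlr9 knockout, 1.73 in Tlr7 knockout and 1.68 in WT cells at 24 h, against -0.38, -0.10 and 0.14 at 0 h, a rise of 2.06 ± 0.40 (SE, adjusted p = 0.00208, limma). Its second probe read 3.10, 2.44 and 2.43 at 24 h. Usp18 read 1.83 in Tlr9 knockout and 0.68 and 0.67 in Tlr7 knockout and WT cells at 24 h, against -0.18, -0.06 and 0.21 at 0 h, a rise of 1.07 ± 0.29 (adjusted p = 0.0132, limma). Its rise was 0.60 without the Tlr9 knockout arrays, and without the Tlr7 knockout arrays it was not called (adjusted p = 0.0657, limma).

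The 2 largest falls at 24 h were Samd9l (-2.83 ± 0.43, SE) and Rsad2 (-2.06 ± 0.21), whose values are given above. Irf1 (-1.63 ± 0.27), Stat2 (-1.39 ± 0.23), Gbp2 (-1.39 ± 0.35), Ifit3 (-1.37 ± 0.36) and Irf7 (-1.27 ± 0.24) were also lower at 24 h, as were Trim25 (-1.02 ± 0.26), Cmpk2, a nucleotide kinase (-0.99 ± 0.25), and Trim21, a cytosolic antibody receptor (-0.80 ± 0.08). The 4 transcription factors were all among the 14 called lower. Irf9, Isg20 and Trim25, called lower here, were above 0 with each array centred on its median (0.14, 0.16 and 0.12).

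At 42 h 7 of 39 members remained lower than at 0 h and none was higher, where 20.6% of all genes were called lower and 17.3% higher. The median member was at -0.22, against -0.003 for all genes. Rsad2 read -1.97 in Tlr9 knockout, -1.91 in Tlr7 knockout and -1.61 in WT cells, against -0.10, 0.59 and 0.04 at 0 h, a change of -2.01 ± 0.21 (SE, adjusted p = 8.77e-05, limma). Samd9l read -2.77 in Tlr9 knockout, -1.45 in Tlr7 knockout and -1.14 in WT cells, a change of -1.64 ± 0.43 (adjusted p = 0.0142, limma). The Tlr9 knockout was the lowest for Samd9l. Rsad2 was not well above background in Cy5 on the Tlr7 knockout and WT arrays at 42 h, so its genotypes cannot be ranked. The others lower at 42 h were Irf1 (-1.51 ± 0.27), Ifit3 (-1.03 ± 0.36), Irf7 (-0.90 ± 0.24), Cmpk2 (-0.75 ± 0.25) and Trim21 (-0.73 ± 0.08). Without the Tlr9 knockout arrays 20 members were called, 9 higher and 11 lower (48.5% of all genes called). Without the Tlr7 knockout arrays 3 were called (19.9% of all genes). With each array centred on its median 6 were lower and 3 higher, and Samd9l was not called.

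**Figure D2:**
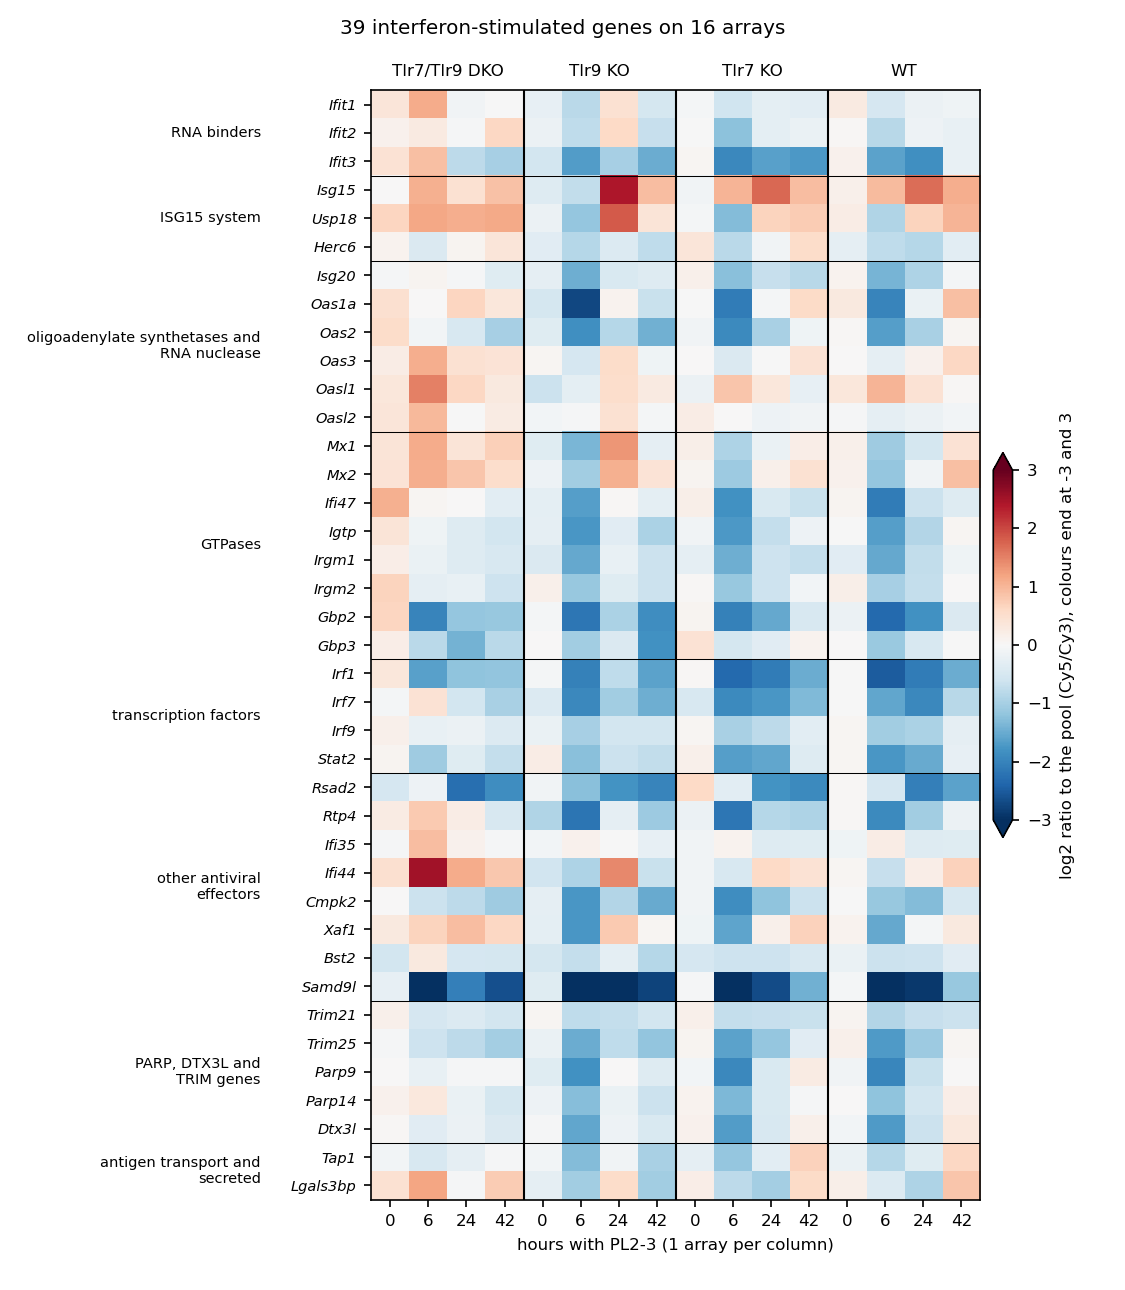
Log2 ratio to the pool (colour) of each of the 39 genes (rows, grouped by role) on each of the 16 arrays (columns, by genotype and hours with PL2-3). The 6 h column is blue in the 3 genotypes with a receptor for most genes, with Samd9l past the end of the scale, and pale or red in the double knockout for most genes.

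Between 24 and 42 h no member was called (limma), with 4 at an unadjusted p under 0.05, where 5.71% of all genes were called. The genotypes went different ways in this step. In Tlr9 knockout cells 36 of 39 members were lower at 42 h than at 24 h, with a median of -0.56, where 51.3% of all genes were higher. In Tlr7 knockout cells 28 were higher and 10 lower, with a median of 0.44, out of the 38 measured, where 50.8% of all genes were higher. In WT cells 35 were higher and 3 lower, with a median of 0.71, also out of 38, where 51.4% of all genes were higher. On the WT array at 42 h 33 of 39 members were well above background in Cy5, the fewest of any array, against 37 at 24 h. Dim neutrophil markers, 0 of 5 above background there, had a median of -0.70 on it. That median was -2.04 in WT cells at 24 h and -2.21 in Tlr7 knockout cells at 42 h. Low ratios of dim probes may thus read nearer the pool on this array, and the part of this in the WT rise was not tested. Leaving out the Tlr9 knockout arrays gave 21 members higher and 2 lower (26% of all genes called). With all 3 genotypes and each array centred on its median, 7 were called lower, with a median of -0.25 beside -0.22 for all genes.

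Mx1, the dynamin-like GTPase of the nucleus in mouse, shows the step. It read -0.26 at 42 h and 1.32 at 24 h in Tlr9 knockout cells, 0.19 at 42 h and -0.20 at 24 h in Tlr7 knockout cells, and 0.44 at 42 h and -0.53 at 24 h in WT cells. Lgals3bp, a secreted glycoprotein, read -1.04 at 42 h and 0.54 at 24 h in Tlr9 knockout cells, 0.57 and -1.02 in Tlr7 knockout cells, and 0.83 and -0.92 in WT cells. Tap1, a subunit of the peptide transporter for antigen presentation, read -0.97 at 42 h and -0.10 at 24 h in Tlr9 knockout cells, 0.70 and -0.32 in Tlr7 knockout cells, and 0.62 and -0.37 in WT cells. In each of these genes the Tlr9 knockout went down and both other genotypes went up. With 1 array per genotype and time the difference between the steps was not tested.

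Set against WT at single times, Tlr9 knockout cells had 37 of 39 members higher at 24 h (median 0.50, where 45.4% of all genes were higher) and 4 of the 38 measured higher at 42 h (median -0.63, where 48.9% were). At 0 h, 6 of 39 members were higher in Tlr9 knockout cells (median -0.27, where 43.2% of all genes were), and at 6 h 14 were (median -0.07). The directions at 24 and 42 h were opposite, and over the 3 stimulated times together no member was called between Tlr9 knockout and WT, none had an unadjusted p under 0.05, and the member median was -0.09 (0.0522% of all genes called, limma). With each array centred on its median it was -0.45 beside -0.27 for all genes. The Tlr9 knockout and WT arrays lay on different slides.

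Tlr7 knockout and WT cells, which share a slide, differed little. No member was called over the stimulated times, 1 had an unadjusted p under 0.05, and the member median was -0.04 (0.00435% of all genes called, limma). At single times the median difference was -0.01 at 0 h, 0.01 at 6 h, 0.12 at 24 h and -0.19 at 42 h. No member was 2-fold apart at 0, 6 or 24 h, but few genes of any kind were. At these times at most 0.522% of all genes were at least 2-fold higher and at most 0.235% lower. At 42 h 1 member was at least 2-fold lower in Tlr7 knockout cells, where 0.486% of all genes were. That member was Ifit3, at -1.73 in Tlr7 knockout cells and -0.23 in WT cells. The WT array at 42 h was weak, with 40.9% of spots well above background in Cy5, against 62.7% for Tlr7 knockout at 42 h. Of the RNA binders Ifit1, Ifit2 and Ifit3, 1 of 3 was well above background in Cy5 on it, against 3 for Tlr7 knockout. A p that misses the threshold does not show that the 2 genotypes are alike.

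The double knockout did not show the fall at 6 h as a group. Its members had a median change of 0.11 between 0 and 6 h, with 3 at least 2-fold higher (8.61% of all genes) and 6 at least 2-fold lower (8.65%). In the same step 24 members were at least 2-fold lower in Tlr9 knockout cells (9.53% of all genes), 26 in Tlr7 knockout cells (11.9%) and 25 in WT cells (12% of all genes), and at least 2-fold higher were 0, 2 and 0 members (12.9%, 10.9% and 10.7% of all genes), with medians of -1.12, -1.22 and -1.19. The 6 members that were at least 2-fold lower in the double knockout were Samd9l, Gbp2, Irf1, Stat2, Ifi47 and Gbp3, so the fall was not lost for every gene.

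At the later times the genotypes were less apart, each set against its own 0 h array. At 24 h no double knockout member was at least 2-fold higher (4.23% of all genes) and 8 were at least 2-fold lower (4.63%), with a median of -0.35. In Tlr9 knockout cells 7 were higher (12%) and 2 lower (9.99%), with a median of -0.01, in Tlr7 knockout cells 1 was higher (10.2%) and 10 lower (10.9%), with a median of -0.59, and in WT cells 1 was higher (10.3%) and 13 lower (10.8%), with a median of -0.57. Tlr9 knockout cells thus had the fewest members under their 0 h level at 24 h. At 42 h the members at least 2-fold lower were 9 in the double knockout (5.7% of all genes), 8 in Tlr9 knockout (6.68%), 4 in Tlr7 knockout (7.05%) and 3 in WT cells (6.68%). Those at least 2-fold higher were 0 in the double knockout (6.96%), 1 in Tlr9 knockout (9.09%), 1 in Tlr7 knockout (6.93%) and 0 in WT cells (7.76%). Between 6 and 24 h, 13 of 39 members went up in the double knockout (48.6% of all genes), against 37 in Tlr9 knockout (47.3%), 33 in Tlr7 knockout (48.3%) and 31 in WT cells (48.5%). The rise after 6 h was thus present in each genotype that had shown the fall, and the median step was -0.26 in the double knockout, against 1.07, 0.67 and 0.53.

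At 6 h the double knockout lay above each of the other 3 genotypes in 38 of 39 members, where 25.4% of all genes did. The exception was Gbp3, at -0.82 in the double knockout against -0.54 in Tlr7 knockout cells. The median member was 1.32 above the mean of the other genotypes, against -0.008 for all genes. The test at 6 h called 3 members higher, where 0.0426% of all genes (10 genes) were called higher and 0.0213% lower, and 31 members had an unadjusted p under 0.05 (limma).

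Rtp4 read 0.78 in the double knockout at 6 h, against -2.20 in Tlr9 knockout, -2.16 in Tlr7 knockout and -1.91 in WT cells. Xaf1 read 0.67 in the double knockout, against -1.74, -1.57 and -1.54. Ifi47 read 0.05 in the double knockout, against -1.66, -1.82 and -2.10. In all 3 genes the double knockout lay at or above the pool at 6 h while the other genotypes lay together far under it. At 0 h Ifi47 read 1.07 in the double knockout, against -0.29 in Tlr9 knockout, 0.18 in Tlr7 knockout and 0.08 in WT cells. It thus fell in the double knockout too, and part of its difference was present before stimulation. Rtp4 and Xaf1 rose in the double knockout, from 0.24 and 0.29 at 0 h. The differences were 2.87 ± 0.41 for Rtp4 (SE, adjusted p = 0.0366, limma), 2.29 ± 0.30 for Xaf1 (adjusted p = 0.0244) and 1.91 ± 0.27 for Ifi47 (adjusted p = 0.0366). Without the WT arrays or without the Tlr7 knockout arrays no member was called, and without the Tlr9 knockout arrays 30 were, all higher, where 4.76% of all genes were called in either direction. That last fit sets slide 2 arrays of the double knockout against slide 1 arrays alone. None was called with each array centred on its median, where the member median was 1.29 beside -0.17 for all genes, with the authors' table or without the 0 h arrays.

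**Figure D3:**
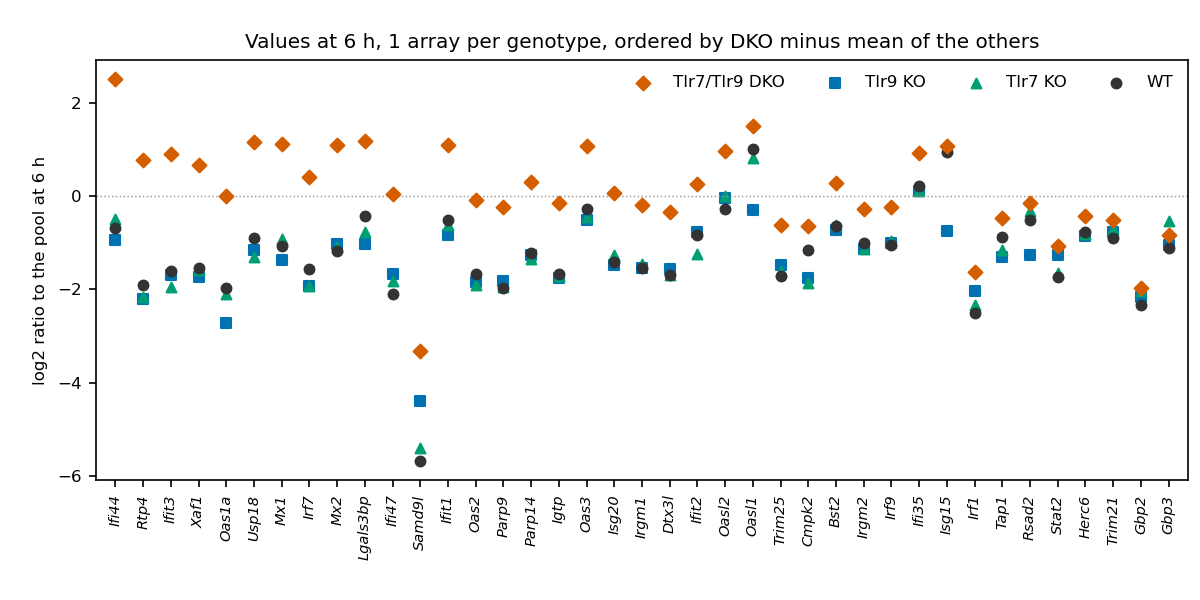
Log2 ratio to the pool at 6 h (vertical axis) for each of the 39 genes (horizontal axis, ordered by the double knockout minus the mean of the others), 1 point per genotype. The double knockout (diamonds) is the highest point for 38 genes, with Ifi44 at 2.52 and Samd9l at -3.33.

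The largest difference at 6 h was that of Ifi44, a gene that type I interferons induce. It read 2.52 in the double knockout, against -0.94 in Tlr9 knockout, -0.49 in Tlr7 knockout and -0.68 in WT cells, a difference of 3.22 ± 0.52 that missed the threshold (adjusted p = 0.064, limma). Ifit3, an RNA binder, differed by 2.65 ± 0.50 (adjusted p = 0.138), Oas1a by 2.28 ± 0.51 (0.269), Usp18 by 2.27 ± 0.40 (0.0928), Mx1 by 2.25 ± 0.55 (0.427) and Irf7 by 2.22 ± 0.34 (0.0511). Members with small differences were Gbp2 (0.21 ± 0.47), Trim21 (0.28 ± 0.11), Stat2 (0.48 ± 0.32) and Irf1 (0.66 ± 0.41). The 8 genes that interferon-gamma induces strongly had a median difference of 0.74, and the RNA binders one of 1.75.

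Within slide 2, the double knockout was above the Tlr9 knockout at 6 h in 39 of 39 members, where 46.6% of all genes were higher. At least 2-fold higher were 27 members, where 0.438% of all genes were, with a median of 1.55. At 0 h the double knockout was already above the Tlr9 knockout in 35 of 39 members, with a median of 0.40, where 54.2% of all genes were higher. The Tlr9 knockout array at 0 h had the fewest spots well above background. Against Tlr7 knockout and WT at 0 h the medians were smaller, 0.22 and 0.17.

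The change between 0 and 6 h in the double knockout minus that in the other genotypes had a median of 1.05 over the members and was above 0 for 38 of 39. No member was called in this test (lowest adjusted p = 0.92, limma), 21 had an unadjusted p under 0.05, and 0.0298% of all genes were called. The test rests on 1 array of the double knockout at each time. Over all stimulated times together the change from 0 h differed with a member median of 0.33, and no member was called either, nor had any an unadjusted p under 0.05 (0.0383% of all genes called). At 24 h the difference between the changes had a member median of 0.07 and at 42 h of -0.23, with none called (0.149% and 0.0341% of all genes called) and 0 and 2 members at an unadjusted p under 0.05 (limma).

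The difference was largest at 6 h and smaller at 24 and 42 h. The double knockout lay above all other genotypes in 26 of 39 members at 0 h (24.1% of all genes), 38 at 6 h, 16 at 24 h (33.9%) and 9 members at 42 h (24.4%). Median differences were 0.24, 1.32, 0.34 and 0.06 at 0, 6, 24 and 42 h. At 0, 24 and 42 h no member was called, with 3, 8 and 1 at an unadjusted p under 0.05 (0.0383%, 4.15% and 0.123% of all genes called, limma). Without the Tlr9 knockout arrays, again between slides, 17 members were called higher and 2 lower at 24 h, and 1 higher and 11 lower at 42 h (25.6% and 16.7% of all genes called). At 24 h the median difference was -0.20 with each array centred on its median, beside -0.26 for all genes.

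Isg15 went the other way at 24 h. It read 0.47 in the double knockout, against 2.42 in Tlr9 knockout, 1.73 in Tlr7 knockout and 1.68 in WT cells, a difference of -1.48 ± 0.55 (SE) that was not called (adjusted p = 0.143, limma). Its second probe read 0.98 in the double knockout, against 3.10, 2.44 and 2.43. Over 0, 6, 24 and 42 h Isg15 read 0.02, 1.08, 0.47 and 0.87 in the double knockout, so its highest value there was at 6 h and not at 24 h. Usp18 read 0.64, 1.16, 1.10 and 1.14 in the double knockout at these times, without the dip of the other genotypes at 6 h.

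**Figure D4:**
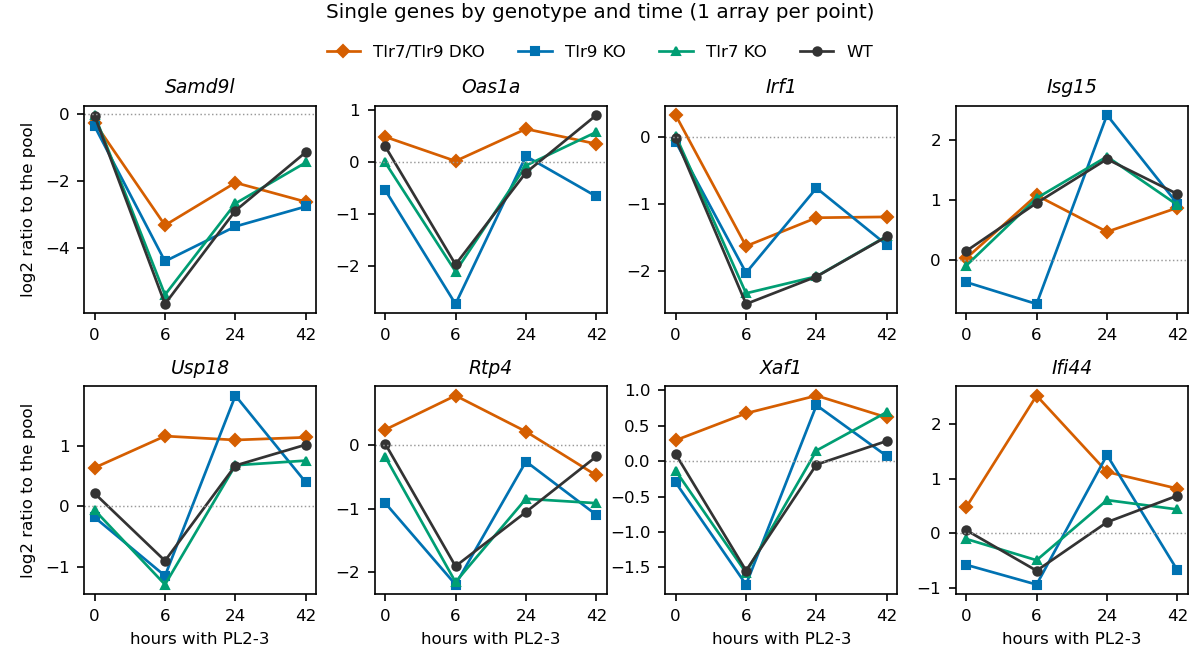
Log2 ratio to the pool (vertical axis, scaled per gene) by hours with PL2-3 (horizontal axis) for 8 genes, 1 array per point. The double knockout lacks the dip at 6 h of Usp18, Rtp4 and Xaf1, and has a small one of Oas1a (0.02 at 6 h, against 0.48 at 0 h). It keeps a smaller fall of Samd9l and lacks the peak of Isg15 at 24 h. Irf1 falls there too, from 0.34 to -1.63, much as in Tlr9 knockout cells (-0.06 to -2.03).

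Averaged over the stimulated times, 37 of 39 members were higher in the double knockout than in the other genotypes, with a median of 0.49, but no member was called and no gene of the 22967 tested was (0%, limma). Between single arrays of these times, 46.6% to 51.3% of all genes were higher in the double knockout than in another genotype. At an unadjusted p under 0.05 were 21 members. Without the 6 h arrays the median was 0.18. Double knockout against Tlr9 knockout, within the slide, gave a median of 0.57 with 38 of 39 above 0, and 8 at an unadjusted p under 0.05, none called (0.0435% of all genes). The effect of Tlr7 loss without Tlr9 minus that with Tlr9, in which a constant offset between the slides cancels, had a median of 0.66 with 37 of 39 above 0, and 3 at an unadjusted p under 0.05, none called (0.0261% of all genes).

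The other genes of the pathway were followed from lists. Of the interferon genes, Ifnb1 and Ifna4 were well above background in Cy5 on 0 of 16 arrays, Ifne on 1, Ifna2 on 4, Ifnk on 6, Ifng on 12, Ifna5 on 13 and Ifna1 on 15. Ifna1 read between -0.16 and 0.27 and Ifna5 between -0.26 and 0.22 over the 16 arrays. Of 10 interferon and receptor genes tested at 6 h, 1 rose and 4 fell, where 22.9% of all genes rose and 23.8% fell. The one that rose was Ifnlr1, the specific subunit of the interferon-lambda receptor, by 2.70 ± 0.44 (SE, adjusted p = 0.00074, limma). Ifnlr1 read 0.73 in the double knockout at 6 h, against 1.09 in Tlr9 knockout, 3.88 in Tlr7 knockout and 3.65 in WT cells. At 24 h it read 0.86 in the double knockout, against 3.09, 3.80 and 3.90, and at 42 h 0.35 in the double knockout, against 2.08, 4.12 and 3.69. The double knockout was the lowest at each of these times, and Tlr9 knockout cells lay nearer to it at 6 h and nearer to the other genotypes at 24 h. Ifngr1, the ligand-binding subunit of the interferon-gamma receptor, fell by 1.39 ± 0.08 (adjusted p = 1.42e-06), and Ifngr2, Il10rb and Ifng fell by between 0.51 and 0.73.

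Of 14 genes for signalling and its inhibitors, 4 rose and 6 fell at 6 h, where 22.9% of all genes rose and 23.8% fell. Irf4, a B cell transcription factor of the same family as Irf1, rose by 2.60 ± 0.18 (SE), and Socs1, a feedback inhibitor of the JAK kinases, by 0.84 ± 0.22. Irf8 rose by 0.58 ± 0.14 and Ptpn2 by 0.40 ± 0.10. Jak1 fell by 1.49 ± 0.16 (adjusted p = 4.29e-05, limma), Tyk2 by 0.78 ± 0.16 (adjusted p = 0.00279), and Irf2, a repressor, by 1.78 ± 0.22. Irf5 and Pias1 were also among the falls. No gene of either list was called in the double knockout against the other genotypes at 6 h, where each had 1 at an unadjusted p under 0.05 (limma).

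Of 47 further interferon-stimulated genes, 29 fell and 3 rose at 6 h (23.8% and 22.9% of all genes), with a median of -0.84. The largest falls were of Ifi203 (-3.95 ± 0.28), Uba7, the enzyme that activates ISG15 (-3.38 ± 0.15), and Ifi204 (-3.31 ± 0.20), and the rises were of Ifitm3 (1.16 ± 0.32), Slfn2 (0.95 ± 0.31) and the proteasome activator gene Psme2 (0.83 ± 0.11, SE). From 6 to 24 h, 27 of the 47 rose and 3 fell (14.1% and 17.9% of all genes), with a median of 0.95. At 24 h 6 were called above 0 h and 18 below (22.7% and 25.9% of all genes). Those above were the RNA sensor gene Ifih1 (3.52 ± 0.46), Ly6a, a cell surface protein gene (3.06 ± 0.71), Eif2ak2, a kinase that halts translation on double-stranded RNA (2.06 ± 0.38), Tor3a (1.86 ± 0.10), Phf11d (1.84 ± 0.56) and Psme2 (0.76 ± 0.11).

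In the double knockout at 6 h, 43 of the 47 lay above 0, with a median of 0.77. Between single arrays at 6 h, 46.6% to 50.9% of all genes were higher in the double knockout than in another genotype. Called higher were 3 of the 47 (0.0426% of all genes). They were Ifi204 (1.94 ± 0.26, adjusted p = 0.0289), Trim30d (1.84 ± 0.27, adjusted p = 0.0454) and Tor3a (1.03 ± 0.13, SE, adjusted p = 0.0244, limma). Of the 10 genes that the test called higher at 6 h over all genes, 3 were thus members and 3 came from this list. Ifi204 read -1.39 in the double knockout, against -3.16 in Tlr9 knockout, -3.47 in Tlr7 knockout and -3.37 in WT cells, a smaller fall than in the others. No gene of the marker lists for B cells, plasmacytoid dendritic cells, macrophages and monocytes, neutrophils, T cells, NK cells, red cells and conventional dendritic cells was called in this comparison (limma), and 1 gene among them had an unadjusted p under 0.05. Red cell markers had the largest median difference of these lists, -0.93 over 3 genes, followed by neutrophil markers at -0.74 over 5 genes.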

How the data were processed

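RNA of AM14 B cells, 4 genotypes at 4 times, was read on 16 2-colour Agilent arrays. Per the submitters' processing notes and the file headers, images were read with Agilent Feature Extraction. The deposited spot intensity is the foreground mean and local background median of each colour. The authors' series table holds log10 of the Cy5 over Cy3 ratio of the processed signals, within 0.0005. Other deposited columns are flags of 0 or 1 for background, saturation and outliers. From the intensities, log2 ratios were computed in R 4.3.3 with limma 3.58.1: normexp background correction (offset 50), loess within each array, outlier spots set to missing, repeated probes averaged, and the brightest probe kept for a gene. Of 55681 probes, 24300 had no symbol in the RefSeq gene list and kept the file's name. A gene was tested if it was well above background in Cy5 or Cy3 on 3 or more of the arrays fitted and had no missing value. The number of arrays limits the precision.

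Tests were limma (lmFit, eBayes), 2-sided, Benjamini-Hochberg adjusted over all genes tested, threshold 0.05. Time responses were fitted on the 12 arrays of the genotypes with a receptor, adjusted for genotype (6 residual degrees of freedom), and genotype comparisons on the 12 arrays after 0 h, adjusted for time. Comparisons at each time used all 16 arrays (8 residual degrees of freedom), so that the lone double knockout array is assumed to vary like the others. Comparisons that share arrays are not independent. Counts of members at an unadjusted p under 0.05, or with a fitted difference above 0, are given without their share over all genes and are descriptions only. The members and lists were chosen with earlier results of these data known. Any member could be named. In each comparison up to 10 of the largest changes past the threshold are given, with values per array for the 2 largest each way, and list genes past the threshold. Members below the threshold at 6 h in the double knockout, and those shown between 24 and 42 h, were picked after their values were seen. Alternatives covered scaling, background, starting values, filters, probes and left-out arrays. Ifi205, Emr1, Trac, Hbb-b1 and Epb4.2 of the lists matched no name on the array.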

Additional observations from a re-analysis of the deposited data

Results flagged for a closer look

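For 16 of 39 members the change between 0 and 6 h was above 0 in the double knockout and below 0 in Tlr9 knockout, Tlr7 knockout and WT cells, where 3.17% of all genes did this. They were Bst2, Ifi44, Ifit1, Ifit2, Ifit3, Irf7, Isg20, Lgals3bp, Mx1, Mx2, Oas3, Parp14, Rsad2, Rtp4, Usp18 and Xaf1. No member did the reverse, where 3.26% of all genes did. The test of the difference between these changes called no member (limma).

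For 26 of 39 members the change between 24 and 42 h was below 0 in Tlr9 knockout cells and above 0 in Tlr7 knockout and WT cells, where 16.2% of all genes did this. No member did the reverse, where 15.6% of all genes did. With 1 array per genotype and time this difference was not tested, and Tlr9 knockout arrays lay on another slide than the Tlr7 knockout and WT arrays.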

How the results depend on the processing

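With 1 array per genotype and time, each count rests on genotypes or times in place of replicates, and the slide cannot be told apart from loss of Tlr9. No paired analysis was possible because each group holds 1 array and so no replicate number to pair on. Genotype (for times) and time (for genotypes) are already terms of the fits. Of 762 repeats of members past the threshold, 638 stayed past it, 121 kept their direction but missed it, and 3 turned sign. The 3 were Irf9 (0.14), Isg20 (0.16) and Trim25 (0.12) at 24 h, with each array centred on its median. The counts of members called at 6 h stayed within 1.5 times under each alternative tried. Leaving out 1 genotype gave 8 to 27 members called at 24 h, 3 to 20 at 42 h, 8 to 29 between 6 and 24 h and 0 to 23 between 24 and 42 h. With all 4 genotypes 12 were called between 6 and 24 h, and with median centring 7 between 24 and 42 h. For the double knockout at 6 h, 0 members were called with median centring, with the authors' table and without the 0 h arrays, 5 with no filter on dim probes and 7 with no background correction. Leaving out 1 of the other genotypes, a choice made after seeing the data, gave 0 to 30 at 6 h, 0 to 19 at 24 h and 0 to 12 at 42 h. Comparisons of genotypes over the stimulated times called 0 members under each alternative tried, the fits within a slide included. Of dim members, Oasl2 was well above background in Cy5 on 9 arrays and Rsad2 on 12.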
